A study of Mus musculus with 12 samples.

Results

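10 genes of glutathione chemistry and of the NRF2 pathway were followed in NIH3T3 cells, an immortalised mouse fibroblast line, after siRNA knockdown of UBF. They are the microsomal glutathione transferases Mgst1, Mgst2 and Mgst3, the glutathione synthesis and recycling genes Gclc, Gclm, Gss and Gsr, the NRF2 target Nqo1, the NRF2 gene Nfe2l2 and its inhibitor Keap1. The genes were taken by name, and each had exactly 1 probe set, so all 10 were measured, among 19938 named genes tested and 35512 probe sets in all. The set was selected on measured values of these arrays, since Mgst1 is higher with both siRNAs against UBF, so the values of Mgst1 against the controls are given as a description with no test. UBF, encoded by Ubtf, is a nucleolar transcription factor of ribosomal RNA genes. The 4 groups were cells transfected with sirUBF oligo #1 (oligo 1), sirUBF oligo #2 (oligo 2) or sirEGFP, a control siRNA, each at 40 nM, and Mock cells, which received the transfection reagent without siRNA. Each group had 3 Affymetrix arrays, called biological replicates in the design text, from total RNA taken at 48 h. All values are deposited log2 expression values.

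NRF2, the product of Nfe2l2, is a transcription factor that binds antioxidant response elements with small MAF partners and turns on genes of glutathione synthesis, conjugation and redox defence. KEAP1 holds NRF2 in the cytoplasm and directs its ubiquitination, until electrophiles or oxidants modify KEAP1 and let NRF2 build up. Control of NRF2 lies largely at the level of the protein, which arrays do not measure. Glutathione itself is a tripeptide made by glutamate-cysteine ligase and glutathione synthetase, and transferases couple it to reactive compounds.

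Promoter sequences in RefSeq (GRCm38.p6) were matched for 8 of the 10 genes, as 9 windows that run from 250 bases before the start. The core of the antioxidant response element, TGACNNNGC, searched on both strands, occurred in the windows of 3 of these genes, Mgst1, Gclm and Nfe2l2, and in 12.4% of all 32851 windows. The 250 bases before the start of these 3 genes are shown because they hold that core, and capitals mark it as it reads on the printed strand. The Mgst1 stretch lies at chr6:138140277-138140526 (plus strand), the Gclm stretch at chr3:122245307-122245556 (plus strand) and the Nfe2l2 stretch at chr2:75704664-75704913 (minus strand).
Mgst1: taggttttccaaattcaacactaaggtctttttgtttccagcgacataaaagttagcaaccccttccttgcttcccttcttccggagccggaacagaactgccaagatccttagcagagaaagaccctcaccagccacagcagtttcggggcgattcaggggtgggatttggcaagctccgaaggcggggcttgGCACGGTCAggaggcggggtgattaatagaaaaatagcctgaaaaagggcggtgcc
Gclm: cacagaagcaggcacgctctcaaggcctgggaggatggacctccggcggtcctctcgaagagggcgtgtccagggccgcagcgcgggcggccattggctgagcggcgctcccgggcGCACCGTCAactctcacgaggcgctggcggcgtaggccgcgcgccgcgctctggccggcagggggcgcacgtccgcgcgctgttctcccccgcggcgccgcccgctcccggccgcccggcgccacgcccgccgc
Nfe2l2: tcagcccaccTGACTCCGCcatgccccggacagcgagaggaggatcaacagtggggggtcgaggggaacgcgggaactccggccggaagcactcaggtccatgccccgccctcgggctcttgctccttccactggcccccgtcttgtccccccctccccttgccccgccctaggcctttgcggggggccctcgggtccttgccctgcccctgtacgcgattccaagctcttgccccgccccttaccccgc
The match read TGACCGTGC in Mgst1 and TGACGGTGC in Gclm, both on the strand opposite to the gene. On the printed strand the capitals begin at -56 in Mgst1 and -134 in Gclm, counted from the start. In Nfe2l2 it read TGACTCCGC on the gene's own strand, at -240. The AP-1 core TGANTCA, which differs from the first motif, occurred in the window of 1 of the 8 genes, Mgst2, as TGACTCA at -52, and in 7.81% of all windows. A match of this kind is a description of the letters and not evidence of binding.

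The targeted gene Ubtf lay between 7.486 and 7.998 on the 6 knockdown arrays, against 8.04 to 8.68 on the 6 control arrays. The control arrays read 8.68, 8.31 and 8.04 with sirEGFP and 8.54, 8.63 and 8.41 in Mock. All knockdown arrays were thus below every array of both controls, and no test of Ubtf against Mock is given here. Its differences from sirEGFP were -0.55 with oligo 1 (adjusted p = 0.107, limma) and -0.61 with oligo 2 (adjusted p = 0.0771, limma), so neither passed the threshold of 0.05. Of 12 fibroblast markers, 12 were above the median of all genes on every array, and their mean level was 9.07 to 9.63 with oligo 1, 9.29 to 9.56 with oligo 2, 8.93 to 9.34 with sirEGFP and 9.22 to 9.38 in Mock. Of 6 adipocyte markers, 0 lay above that median on all arrays, and their mean level was 4.62 to 4.92 with oligo 1, 4.875 to 5.002 with oligo 2, 4.62 to 4.75 with sirEGFP and 4.65 to 4.70 in Mock. Macrophage markers averaged 4.886 to 4.996 with oligo 1, 4.75 to 5.05 with oligo 2, 4.68 to 4.84 with sirEGFP and 4.72 to 4.93 in Mock. Among the adipocyte and macrophage markers, Fabp4 was higher by 1.65 with oligo 2 than with sirEGFP (adjusted p = 0.000143, limma), and Csf1r by 0.83 with oligo 1 (adjusted p = 0.00874, limma). Each was the only called marker of its list in that comparison: with oligo 2, 3 of 6 adipocyte markers were above sirEGFP (median -0.015), and with oligo 1, 2 of 6 macrophage markers were (median -0.017). Of the 12 fibroblast markers, 2 were called higher with oligo 2 than with sirEGFP and 0 lower (median 0.22), where 1.52% of all genes rose and 0.742% fell. With oligo 1 against sirEGFP, 0 were called. Between the siRNAs, 1 was higher and 2 were lower with oligo 1, where 1.37% and 2.3% of all genes were. The part of all these markers in the results that follow was not tested. In RNA of whole cultures, a change in the share of cells that express a gene and a change in RNA per cell cannot be told apart.

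Mgst1, a membrane enzyme of the endoplasmic reticulum and outer mitochondrial membrane that conjugates glutathione and reduces lipid peroxides, was higher with both siRNAs against UBF than in either control. It measured 7.84, 8.87 and 8.20 on the oligo 1 arrays and 8.57, 8.22 and 8.67 on the oligo 2 arrays, against 6.82, 7.03 and 7.41 on the sirEGFP arrays and 7.08, 6.78 and 6.96 on the Mock arrays. All 6 knockdown arrays lay above all 6 control arrays, with the closest pair being oligo 1 array 1 and sirEGFP array 3. The group means were 8.30 ± 0.52 with oligo 1, 8.49 ± 0.24 with oligo 2, 7.09 ± 0.30 with sirEGFP and 6.94 ± 0.15 in Mock (SD, n = 3 each). Over sirEGFP this is a 2.32-fold level with oligo 1 and a 2.64-fold level with oligo 2, and the mean of both siRNAs stood 1.31 above sirEGFP on the log2 scale. The oligo 1 arrays spread most, with array 1 lowest and array 2 highest.

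**Figure D1:**
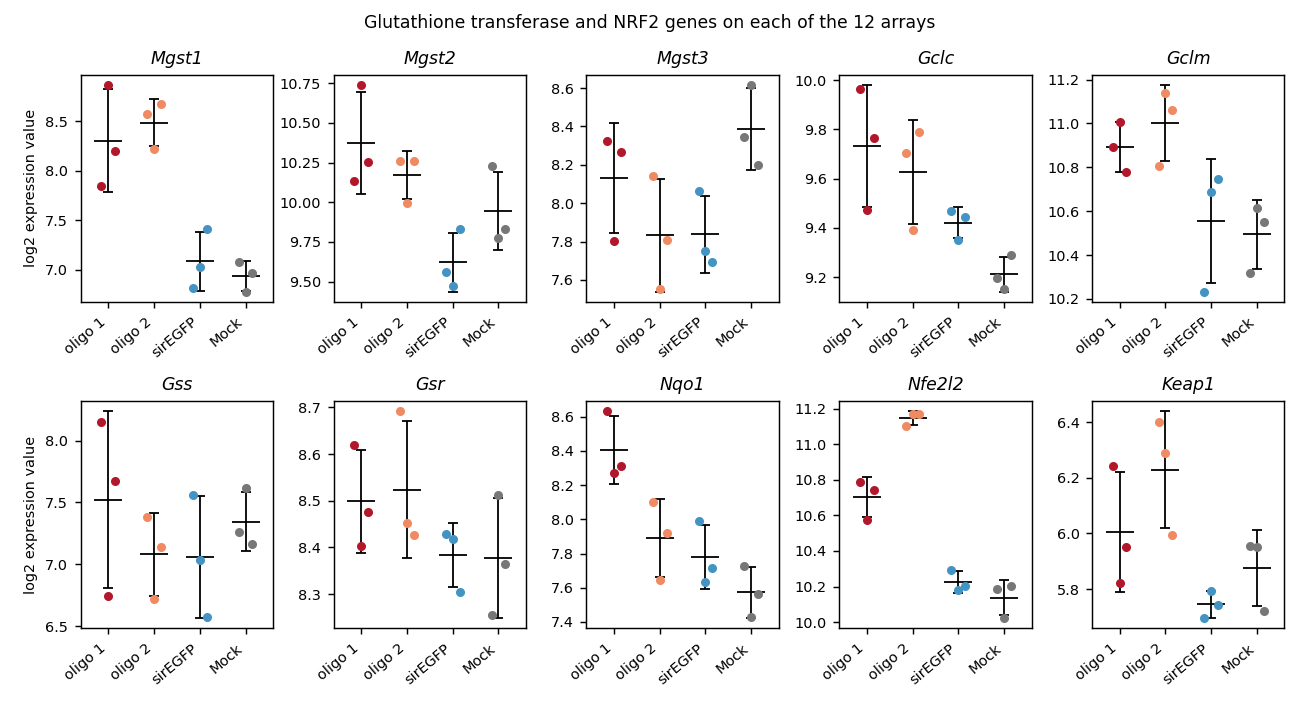
Deposited log2 expression value (vertical axis, own range for each gene) of the 10 genes on each of the 12 arrays, by group from oligo 1 and oligo 2 to sirEGFP and Mock. Points are arrays, wide bars are group means and whiskers are 1 SD (n = 3). The knockdown points of Mgst1, Gclm and Nfe2l2 all lie above the control points, while those of Mgst3, Gss and Gsr overlap them.

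Mgst2, a microsomal transferase that can make leukotriene C4, was higher with the siRNAs than with sirEGFP, by less than Mgst1. It measured 10.13, 10.74 and 10.26 with oligo 1 and 10.26, 10.00 and 10.26 with oligo 2, against 9.56, 9.47 and 9.83 with sirEGFP and 10.23, 9.78 and 9.83 in Mock. The knockdown arrays were all above the sirEGFP arrays, but Mock array 1 reached into their range. Against sirEGFP, Mgst2 rose by 0.75 with oligo 1 (SE 0.17, adjusted p = 0.0299, limma) and by 0.65 for the mean of both siRNAs (SE 0.15, adjusted p = 0.0368, limma). The difference with oligo 2 alone was 0.55 (adjusted p = 0.124), and against Mock the differences were 0.43 with oligo 1 (adjusted p = 0.261) and 0.23 with oligo 2 (adjusted p = 0.642). The oligo 1 call was lost without oligo 1 array 2 (adjusted p = 0.0612) or 3 (0.0705) and without sirEGFP array 1 (0.0620) or 2 (0.150). The call for the mean was lost without oligo 1 array 3 (0.0607), oligo 2 array 1 (0.0812) or 3 (0.0825), sirEGFP array 1 (0.0766), 2 (0.227) or 3 (0.0673), or Mock array 3 (0.0524).

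Mgst3, a relative with glutathione transferase and peroxidase activity, did not follow them. Its values were 8.33, 7.80 and 8.27 with oligo 1 and 8.14, 7.55 and 7.81 with oligo 2, against 8.06, 7.75 and 7.70 with sirEGFP and 8.35, 8.62 and 8.20 in Mock. The 3 transfected groups overlapped each other, and all 3 oligo 2 arrays and all 3 sirEGFP arrays lay below every Mock array. No comparison of Mgst3 passed in the limma fit. The mean of both siRNAs differed from sirEGFP by 0.14 (adjusted p = 0.800, limma) and from Mock by -0.40 (adjusted p = 0.210). Oligo 2 differed from Mock by -0.55 (adjusted p = 0.108) and sirEGFP from Mock by -0.55 (adjusted p = 0.714). Among the alternative settings, the lower level with oligo 2 than in Mock passed under 2. The higher level with oligo 1 passed under 1 against sirEGFP and under 1 against oligo 2.

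The ligase that starts glutathione synthesis has a catalytic subunit, Gclc, and a modifier subunit, Gclm. Gclm measured 10.893, 11.005 and 10.777 with oligo 1 and 10.81, 11.14 and 11.06 with oligo 2, against 10.23, 10.69 and 10.75 with sirEGFP and 10.32, 10.62 and 10.55 in Mock. All 6 knockdown arrays were above all 6 control arrays, though oligo 1 array 3 cleared sirEGFP array 3 by little. The differences from sirEGFP were 0.34 with oligo 1 (adjusted p = 0.341) and 0.45 with oligo 2 (adjusted p = 0.166), and for the mean of both 0.39 (SE 0.13, adjusted p = 0.165, limma). None of these passed the threshold, nor did oligo 1 against Mock (0.40, adjusted p = 0.232) or oligo 2 against Mock (0.51, adjusted p = 0.0749), which passed without sirEGFP array 1 (adjusted p = 0.0364) and under 5 other settings, centring, weights, the replicate block, only the arrays compared, and 3 arrays left out together (adjusted p 0.0168 to 0.0450).

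Gclc measured 9.96, 9.47 and 9.77 with oligo 1 and 9.70, 9.39 and 9.79 with oligo 2, against 9.47, 9.35 and 9.44 with sirEGFP and 9.19, 9.15 and 9.29 in Mock. The knockdown arrays lay above every Mock array, and 5 of the 6 lay above every sirEGFP array, with oligo 2 array 2 inside the sirEGFP range. The mean of both siRNAs differed from sirEGFP by 0.26 (adjusted p = 0.374, limma), and oligo 1 differed from Mock by 0.52 (adjusted p = 0.0643), which passed without oligo 1 array 2 (adjusted p = 0.0185). The mean of both siRNAs exceeded Mock by a called 0.47 (adjusted p = 0.0483), in a comparison added after the data had been seen. That call was lost without any 1 of 10 arrays, all but array 2 of oligo 1 and array 2 of oligo 2 (adjusted p 0.0541 to 0.193). It was also lost with centring (0.0579), with every probe set fitted on its own (0.116) and with only the arrays compared (0.0778). Set against the mean of both control groups, Gclc was higher by 0.36 (adjusted p = 0.0475) and Gclm by 0.42 (adjusted p = 0.0314).

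Gss, the synthetase that completes glutathione, varied more between arrays of a group than between groups. It measured 8.15, 6.74 and 7.68 with oligo 1 and 7.38, 6.72 and 7.14 with oligo 2, against 7.56, 7.03 and 6.58 with sirEGFP and 7.26, 7.62 and 7.16 in Mock. Oligo 1 held the highest array and also a low one, and every group overlapped the others. The mean of both siRNAs differed from sirEGFP by 0.24 (adjusted p = 0.802, limma). Gsr, the reductase that regenerates glutathione from its oxidised form, ranged from 8.40 to 8.69 on the knockdown arrays, against 8.25 to 8.51 on the control arrays, and differed from sirEGFP by 0.13 (adjusted p = 0.696, limma).

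Nqo1, a quinone reductase and a standard NRF2 target, was raised by oligo 1. Its values were 8.63, 8.27 and 8.31 with oligo 1 and 8.10, 7.65 and 7.92 with oligo 2, against 7.99, 7.63 and 7.72 with sirEGFP and 7.73, 7.43 and 7.56 in Mock. The oligo 1 arrays were above all 9 others, and the oligo 2 arrays overlapped both controls. Nqo1 rose by 0.63 against sirEGFP with oligo 1 (SE 0.15, adjusted p = 0.0402, limma) and by 0.83 against Mock (adjusted p = 0.00713). With oligo 2 the differences were 0.11 from sirEGFP (adjusted p = 0.858) and 0.32 from Mock (adjusted p = 0.341). The 0.52 by which oligo 1 exceeded oligo 2 (95% interval 0.20 to 0.84) did not pass (adjusted p = 0.0771). It passed with the replicate number as a block (adjusted p = 0.00882), with array weights (0.0120) and with quantile normalization (0.0337). The labels do not say that the replicate numbers pair arrays, and the correlations do not establish it. The call against sirEGFP was lost without oligo 1 array 1 (adjusted p = 0.163) or 3 (0.0924), oligo 2 array 3 (0.0614), sirEGFP array 2 (0.197) or 3 (0.152), or Mock array 1 (0.0521) or 3 (0.0584), and when arrays were centred on their medians (0.0693). The call against Mock was kept without any single array (adjusted p 0.00588 to 0.0410), and was lost when sirEGFP array 1 and oligo 1 arrays 1 and 2 were left out together (0.108).

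Nfe2l2, the NRF2 gene itself, rose with both siRNAs, and more with oligo 2. It measured 10.79, 10.57 and 10.74 with oligo 1 and 11.10, 11.17 and 11.17 with oligo 2, against 10.29, 10.18 and 10.20 with sirEGFP and 10.19, 10.02 and 10.20 in Mock. The groups formed 3 levels with no overlap, oligo 2 above oligo 1 and both above the controls, which overlapped each other. The means were 10.70 ± 0.11 with oligo 1, 11.15 ± 0.039 with oligo 2, 10.23 ± 0.060 with sirEGFP and 10.14 ± 0.099 in Mock (SD, n = 3 each).

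Against sirEGFP, Nfe2l2 rose by 0.47 with oligo 1 (SE 0.11, adjusted p = 0.0311, limma), by 0.92 with oligo 2 (SE 0.11, adjusted p = 0.000272) and by 0.70 for the mean of both (SE 0.094, adjusted p = 0.00174), a 1.62-fold change. Against Mock it rose by 0.57 for oligo 1 (adjusted p = 0.0105) and 1.01 for oligo 2 (adjusted p = 0.000138). Oligo 1 was below oligo 2 by a called difference of -0.45 (adjusted p = 0.0326, limma). The oligo 2 calls and the call for the mean held without any single array, and under every other setting tried. The oligo 1 call against sirEGFP was lost without oligo 1 array 1 (adjusted p = 0.117) or 3 (0.121) and without sirEGFP array 2 (0.140) or 3 (0.121), and that against Mock without oligo 1 array 3 (0.0554) or Mock array 2 (0.0540). The call between the siRNAs was lost without oligo 1 array 2 (0.0964) or 3 (0.0856) and without oligo 2 array 1 (0.0782), 2 (0.104) or 3 (0.121).

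Keap1, which encodes the inhibitor of NRF2, measured 6.24, 5.82 and 5.95 with oligo 1 and 6.40, 6.29 and 5.99 with oligo 2, against 5.70, 5.79 and 5.74 with sirEGFP and 5.96, 5.95 and 5.72 in Mock. Every knockdown array was above every sirEGFP array, and oligo 1 arrays 2 and 3 overlapped Mock. The differences from sirEGFP were 0.26 with oligo 1 (adjusted p = 0.460, limma) and 0.48 with oligo 2 (adjusted p = 0.0942, limma), and neither passed. With the replicate number as a block, the oligo 2 difference passed (adjusted p = 0.0471).

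Counted over the 9 genes other than Mgst1, 3 rose and 0 fell with oligo 1 against sirEGFP (Mgst2, Nqo1 and Nfe2l2), where 1.04% of all genes rose and 1.43% fell. With oligo 2 against sirEGFP, 1 of 9 rose (Nfe2l2) and 0 fell, where 1.52% of all genes rose and 0.742% fell. With the replicate block this count was 2 (Nfe2l2 and Keap1), where 3.88% of all genes were called. For the mean of both siRNAs, 2 of 9 rose (Mgst2 and Nfe2l2) and 0 fell, where 1.21% of all genes rose and 0.722% fell. Against Mock, 2 of 9 rose with oligo 1 (Nqo1 and Nfe2l2), where 1.35% of all genes rose and 1.4% fell, and 1 of 9 rose with oligo 2 (Nfe2l2), where 2.93% of all genes rose and 1.32% fell. The mean of both siRNAs against Mock gave 3 of 9 higher (Gclc, Nqo1 and Nfe2l2), where 2.08% of all genes rose and 1.22% fell. In it Nqo1 was lost without oligo 2 array 1 or 3 or any Mock array (adjusted p 0.0555 to 0.154) and with every probe set fitted on its own (0.0812), and Nfe2l2 was kept without any single array. The comparisons with one control share its arrays and are not independent of each other. Against sirEGFP, the median change of the 9 genes for the mean of both siRNAs was 0.37, beside 0.0077 over all genes tested, and 9 of 9 differences were above 0. Against Mock it was 0.33, beside 0.027 over all genes, and 7 of 9 were above 0. Mgst3 (-0.40) and Gss (-0.044) were below.

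**Figure D2:**
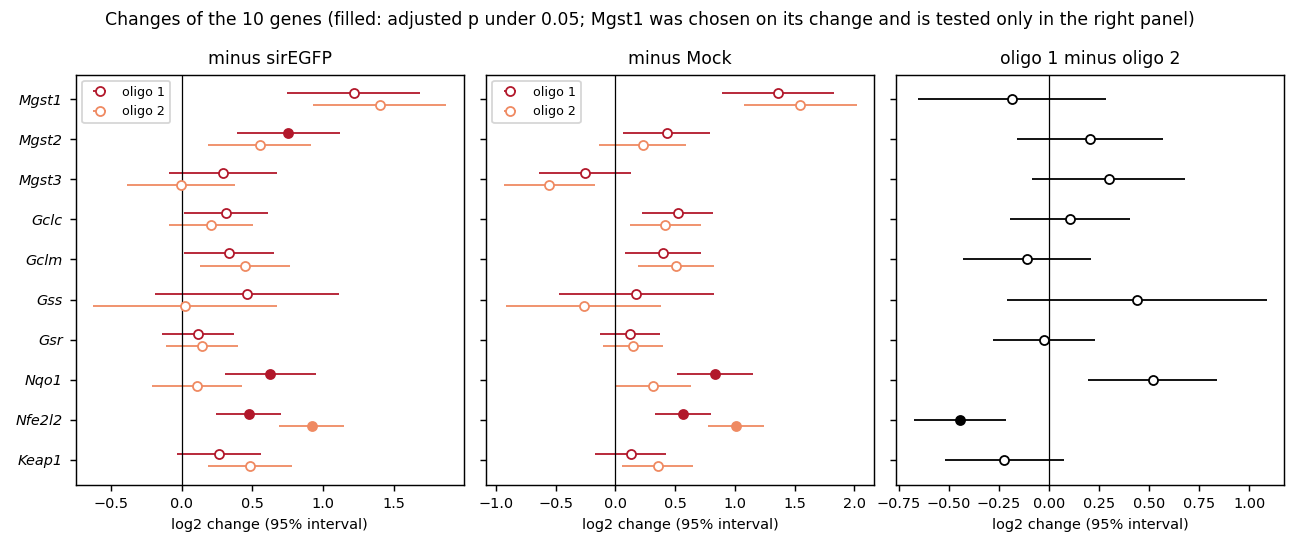
Log2 change of each of the 10 genes (horizontal axis) with its 95% interval, for oligo 1 and oligo 2 minus sirEGFP (left), minus Mock (middle) and for oligo 1 minus oligo 2 (right). Filled points passed an adjusted p of 0.05, and Mgst1 was tested in the right panel alone. Nfe2l2 is filled in all 3 panels, and Mgst3 and Gss have intervals across 0 against sirEGFP.

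The 6 knockdown arrays lay above all 6 control arrays for 2 of the 9 genes (Gclm and Nfe2l2) as well as for Mgst1, and this held for 1.43% of all genes. These 3 genes were also the 3 with the antioxidant response element core in their promoter windows. Counted by gene over all windows of a gene, the core was found in 21.3% of the 235 genes that were separated upward in this way and had a promoter, and in 15.2% of the 15614 tested genes that had one. Mgst1, Gclm and Nfe2l2 are among both, and the genes were chosen with earlier results known, so the match is a description.

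The control siRNA alone left the 10 genes without a call. Against Mock, sirEGFP gave 0 calls among the 10 in the limma fit, where 0% of all genes were called. At an unadjusted p under 0.05, 1 of the 10 was lower (Mgst3), beside 6.25% of all genes in either direction. Mgst1 differed by 0.15 (adjusted p = 0.953) and Nfe2l2 by 0.090 (adjusted p = 0.934). The siRNAs against UBF differed from each other in 1 of 10 genes, Nfe2l2, lower with oligo 1, where 2.3% of all genes were called lower and 1.37% higher. With the replicate block the count was 2 (Nfe2l2 and Nqo1), where 5.49% of all genes were called. Mgst1 differed by -0.18 between oligo 1 and oligo 2, with a 95% interval from -0.66 to 0.29 (adjusted p = 0.797, limma).

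The wider pathway was described with 98 other genes in 6 lists, of which 92 were measured. For the mean of both siRNAs against sirEGFP, 4 of the 92 rose and 0 fell, with a median change of 0.16, where 1.21% of all genes rose. With oligo 1, 8 rose and 0 fell, with a median of 0.17, where 1.04% of all genes rose. With oligo 2, 2 rose and 1 fell, with a median of 0.092, which is near the 1.52% of all genes that rose and the 0.742% that fell. With the replicate block the oligo 2 count was 11, where 3.88% of all genes were called. Against Mock, 4 rose with oligo 1 and 7 with oligo 2, and 0 fell, where 1.35% and 2.93% of all genes rose. Against sirEGFP, with all arrays, 2.47% of all genes were called with oligo 1, 2.26% with oligo 2 and 1.93% for the mean. Leaving out oligo 1 array 1 or 3, or sirEGFP array 2 or 3, took the oligo 1 count to 0 (0.777% to 1.3% of all genes). Leaving out oligo 1 array 2 took it to 14 (4.33%), Mock array 1 to 4 (2.03%), and oligo 2 array 2 or 3 to 5 (2.24% and 1.97%). The oligo 2 count became 5 without oligo 1 array 1 (2.94%) and 6 without oligo 1 array 2 (3.14%). The count for the mean became 14 without oligo 1 array 2 (3.62%), 8 without sirEGFP array 1 (2.34%) and 3 without oligo 2 array 2 (1.36%). It became 2 without any other array (0.542% to 1.59%). The lists' genes whose 6 knockdown arrays lay above all controls were Gsta4, Glrx and Cat, 3 of the 92, where 1.43% of all genes were. Maff was below on all 6, as 0.692% of all genes were.

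**Figure D3:**
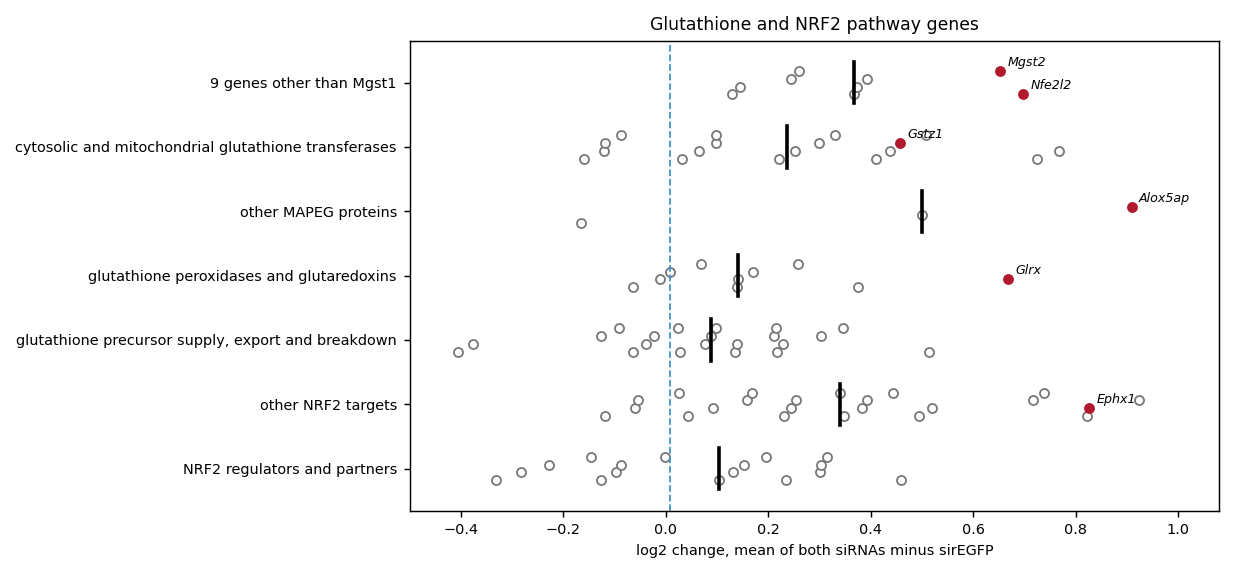
Log2 change for the mean of both siRNAs minus sirEGFP (horizontal axis) of each gene in the set of 9 and in the 6 pathway lists (rows). Filled, named points passed an adjusted p of 0.05, black bars are list medians and the dashed line is the median of all genes (0.0077). The medians of the 6 lists lie between 0.088 and 0.50.

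Among 18 measured cytosolic and mitochondrial glutathione transferases, 1 rose and 0 fell for the mean of both siRNAs against sirEGFP, with a median change of 0.24. Of all genes, 1.21% rose and 0.722% fell. The gene that rose was Gstz1, a maleylacetoacetate isomerase of tyrosine breakdown, by 0.46 (adjusted p = 0.0468, limma). Its arrays read 6.96, 6.78 and 6.86 with oligo 1 and 7.02, 6.74 and 7.12 with oligo 2, against 6.44, 6.31 and 6.62 with sirEGFP and 6.92, 6.98 and 6.82 in Mock. The knockdown arrays overlapped the Mock arrays and differed from Mock by -0.042 for oligo 1 (adjusted p = 0.946) and 0.053 for oligo 2 (adjusted p = 0.930). The Gstz1 call was lost without any 1 of 10 arrays, all but array 2 of oligo 1 and array 2 of oligo 2 (adjusted p 0.0613 to 0.291). Gsta4, which detoxifies lipid aldehydes, differed by 0.33 (adjusted p = 0.116), Gstm3 by 0.51 (adjusted p = 0.0881) and Gstm1 by 0.77 (adjusted p = 0.158). Probe sets of the closely related Gstm and Gsta genes may share signal, which makes their values uncertain. With oligo 1 alone against sirEGFP the transferase that passed was Gsto1, named after its values were seen, at 0.46 (adjusted p = 0.0442), and it was lost without any 1 array other than Mock array 2 (adjusted p 0.0545 to 0.139). With oligo 1 against Mock, 1 of 18 was called, where 1.35% of all genes rose. It was Gsto2, also named after its values were seen, higher by 0.78, and 7 of the 12 single-array omissions ended that call (adjusted p up to 0.205, limma).

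The 3 other proteins of the family of Mgst1 make or serve lipid mediators. Alox5ap, the protein that presents arachidonic acid to 5-lipoxygenase, rose by 0.91 for the mean of both siRNAs (SE 0.14, adjusted p = 0.00471, limma), and against the same control by 0.80 (adjusted p = 0.0194) for oligo 1 alone and 1.02 (adjusted p = 0.00415) for oligo 2 alone. It measured 8.78, 8.46 and 8.46 with oligo 1 and 9.10, 8.56 and 8.70 with oligo 2, against 7.93, 7.74 and 7.64 with sirEGFP and 8.64, 8.57 and 8.14 in Mock. The sirEGFP arrays were the lowest, and Mock overlapped the knockdown arrays, with differences from Mock of 0.12 with oligo 1 (adjusted p = 0.865) and 0.34 with oligo 2 (adjusted p = 0.367). The oligo 1 call of Alox5ap was lost without oligo 1 array 1 (0.0804) or 3 (0.0532) or sirEGFP array 2 (0.0893) or 3 (0.0941). For the mean of both siRNAs against sirEGFP, Ptges, a prostaglandin E synthase, differed by 0.50 (adjusted p = 0.168, limma) and Ltc4s, the leukotriene C4 synthase, by -0.17 (adjusted p = 0.658). Thus 1 of 3 rose, where 1.21% of all genes did. With oligo 2 against Mock, 1 of 3 was called, where 2.93% of all genes rose. It was Ptges, higher by 0.73, and 8 of the 12 single-array omissions ended that call (adjusted p up to 0.187, limma).

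Of 10 glutathione peroxidases and glutaredoxins, 1 rose and 0 fell for the mean of both siRNAs against sirEGFP, with a median of 0.14. Of all genes, 1.21% rose and 0.722% fell. Glrx, the cytosolic glutaredoxin that removes glutathione from protein thiols, rose by 0.67 for the mean of both siRNAs (SE 0.11, adjusted p = 0.00518, limma), while oligo 1 alone gave 0.52 (adjusted p = 0.0416) and oligo 2 alone 0.82 (adjusted p = 0.00297). Its arrays read 8.73, 8.71 and 8.65 with oligo 1 and 9.04, 9.13 and 8.82 with oligo 2, against 8.04, 8.28 and 8.22 with sirEGFP and 8.34, 8.55 and 8.21 in Mock. All knockdown arrays were above all controls. The oligo 1 call of Glrx was lost without any oligo 1 or sirEGFP array, without oligo 2 array 1 and without Mock array 1 (adjusted p 0.0570 to 0.120). Against Mock, Glrx rose with oligo 2 by 0.63 (adjusted p = 0.0116) and differed with oligo 1 by 0.33 (adjusted p = 0.235). That rise was lost without oligo 2 array 2 or Mock array 1 (adjusted p 0.0553 to 0.0581). The mitochondrial glutaredoxins Glrx2 and Glrx5 differed from sirEGFP by 0.37 (adjusted p = 0.169) and 0.26 (adjusted p = 0.582), and the peroxidase Gpx2 by 0.14 (adjusted p = 0.809).

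Among 21 genes of glutathione precursor supply, export and breakdown, 0 passed in the limma fit for the mean of both siRNAs, with 1 higher and 2 lower at an unadjusted p under 0.05 (13.2% of all genes, either way) and a median of 0.088. The mitochondrial carrier gene Slc25a40 differed by -0.41 (adjusted p = 0.115), the exporter gene Abcc1 by 0.51 (adjusted p = 0.196), and Ggt7, of the gamma-glutamyltransferase family, by 0.22 (adjusted p = 0.409). Chac1, an enzyme that degrades glutathione, fell by 0.82 with oligo 2 against sirEGFP (adjusted p = 0.0305, limma). It measured 7.97, 7.42 and 7.64 with oligo 1 and 6.87, 6.50 and 6.98 with oligo 2, against 7.87, 7.35 and 7.61 with sirEGFP and 7.21, 7.69 and 7.27 in Mock. The oligo 2 arrays were below all others, and the oligo 1 arrays overlapped both controls. This call of Chac1 was lost without oligo 1 array 3 (0.0508), oligo 2 array 1 (0.0775), 2 (0.133) or 3 (0.0515), or sirEGFP array 1 (0.0824) or 3 (0.103), and when arrays were centred (0.0547).

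Of 23 other NRF2 targets, 5 rose and 0 fell with oligo 1 against sirEGFP, with a median of 0.45, where 1.04% of all genes rose. With oligo 2, 0 passed in the limma fit, where 1.52% of all genes rose, with 6 higher at an unadjusted p under 0.05 (12.9% of all genes, either way) and a median of 0.21. The difference between the lists' counts was not tested. Against Mock, 3 rose with oligo 1 (Hmox1, Cat and Aox1) and 2 with oligo 2 (Cat and Ugdh), and 0 fell, where 1.35% and 2.93% of all genes rose. Aox1, an aldehyde oxidase named after its values were seen, rose by 0.69 (adjusted p = 0.0190), and was lost without oligo 1 array 1 (0.0702) or 3 (0.0621) or Mock array 1 (0.101) or 3 (0.0692). Ugdh, the UDP-glucose dehydrogenase gene, also named after its values were seen, rose by 0.67 with oligo 2 (adjusted p = 0.00735). Its arrays read 10.46, 10.72 and 10.69 with oligo 2, 9.96, 10.24 and 10.33 with sirEGFP and 9.93, 9.93 and 9.99 in Mock. The 5 were Hmox1, the heme oxygenase, by 1.56 (adjusted p = 0.0168), Blvrb, a biliverdin reductase, by 1.102 (adjusted p = 0.0416), Ephx1, the microsomal epoxide hydrolase, by 0.96 (adjusted p = 0.0412), Cbr3, a carbonyl reductase, by 0.69 (adjusted p = 0.0287), and Cat, the catalase gene, by 0.52 (adjusted p = 0.0158). For the mean of both siRNAs against sirEGFP 1 of the 23 rose, where 1.21% of all genes did. It was Ephx1, by 0.83 (adjusted p = 0.0491, limma), with a list median of 0.34.

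Hmox1, which was named after its values were seen, measured 9.65, 8.61 and 9.68 with oligo 1 and 8.34, 7.41 and 8.38 with oligo 2, against 8.14, 7.45 and 7.68 with sirEGFP and 7.01, 7.94 and 7.53 in Mock. The oligo 1 arrays were above all others, and the oligo 2 arrays overlapped both controls. Cat measured 9.14, 9.03 and 9.11 with oligo 1 and 8.85, 8.69 and 8.73 with oligo 2, against 8.52, 8.64 and 8.58 with sirEGFP and 8.26, 8.22 and 8.16 in Mock. Its groups lay at 4 levels without overlap, and against Mock it rose by 0.89 with oligo 1 (adjusted p = 0.000695, limma) and by 0.55 with oligo 2 (adjusted p = 0.00861, limma). With oligo 2 it differed from sirEGFP by 0.18 (adjusted p = 0.538, limma), and sirEGFP itself differed from Mock by 0.37 (adjusted p = 0.668, limma). The oligo 1 calls against sirEGFP of Hmox1 (0.0637 to 0.101), Cat (0.0561 to 0.0663) and Cbr3 (0.0663 to 0.134) were each lost without oligo 1 array 1 or 3 or sirEGFP array 2 or 3. Those of Ephx1 (0.0515 to 0.192) and Blvrb (0.0527 to 0.189) were lost without the same 4 arrays, oligo 2 array 2 or 3, or Mock array 1, and for Ephx1 also Mock array 2 or 3. Centring the arrays also ended the calls of Ephx1 (0.0747) and Blvrb (0.0693). The Ephx1 call for the mean was lost without any 1 of 10 arrays, all but oligo 1 array 2 and sirEGFP array 1 (0.0628 to 0.276), and with centring (0.0730).

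Of 17 NRF2 regulators and partners, 0 passed in the limma fit for the mean of both siRNAs, with 3 higher and 2 lower at an unadjusted p under 0.05 (13.2% of all genes, either way) and a median of 0.10. Ep300, an acetyltransferase that acts as an NRF2 coactivator, differed by 0.46 (adjusted p = 0.0668). Maff, a small MAF partner, differed by -0.33 (adjusted p = 0.106). Rbx1, a subunit of the KEAP1 ubiquitin ligase, differed by -0.28 (adjusted p = 0.209), and the kinase gene Gsk3b by 0.30 (adjusted p = 0.237). Against Mock, 2 of the 17 rose with oligo 2, where 2.93% of all genes rose. They were Bach1, a repressor that competes with NRF2 at its sites and was named after its values were seen, by 0.44 (adjusted p = 0.0281), and Gsk3b by 0.50 (adjusted p = 0.0428). Bach1 measured 7.15, 7.15 and 7.09 with oligo 2, 6.75, 6.97 and 6.98 with sirEGFP and 6.67, 6.72 and 6.67 in Mock. With oligo 2 against sirEGFP, 0 of the 17 were called. The Bach1 call was lost without any oligo 2 or Mock array (adjusted p 0.0650 to 0.103). The Gsk3b call was lost without oligo 1 array 3, oligo 2 array 2 or 3, sirEGFP array 2 or 3, or Mock array 1 or 2 (adjusted p 0.0549 to 0.173), and with quantile normalization (0.0522).

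Over the 12 arrays, the genes whose profile was most like that of Mgst1 were Dhx40 (Pearson r = 0.951), Pik3r1 (0.944), Slc38a6 (0.942), Itm2b (0.940) and St7l (0.940). The most opposed were Hsd17b7 (-0.937), Rpa1 (-0.923), Ubtf (-0.923), Ccn2 (-0.913) and Mre11a (-0.905). Within the set, Nfe2l2 was nearest to Mgst1 (r = 0.844), followed by Mgst2 (0.809), Gclm (0.806), Gclc (0.633), Nqo1 (0.565), Keap1 (0.524) and Gsr (0.366). Gss (-0.187) and Mgst3 (-0.392) ran the other way. These correlations are descriptions over 12 arrays that fall into knockdown and control groups, and Mgst1 was picked for that split.

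**Figure D4:**
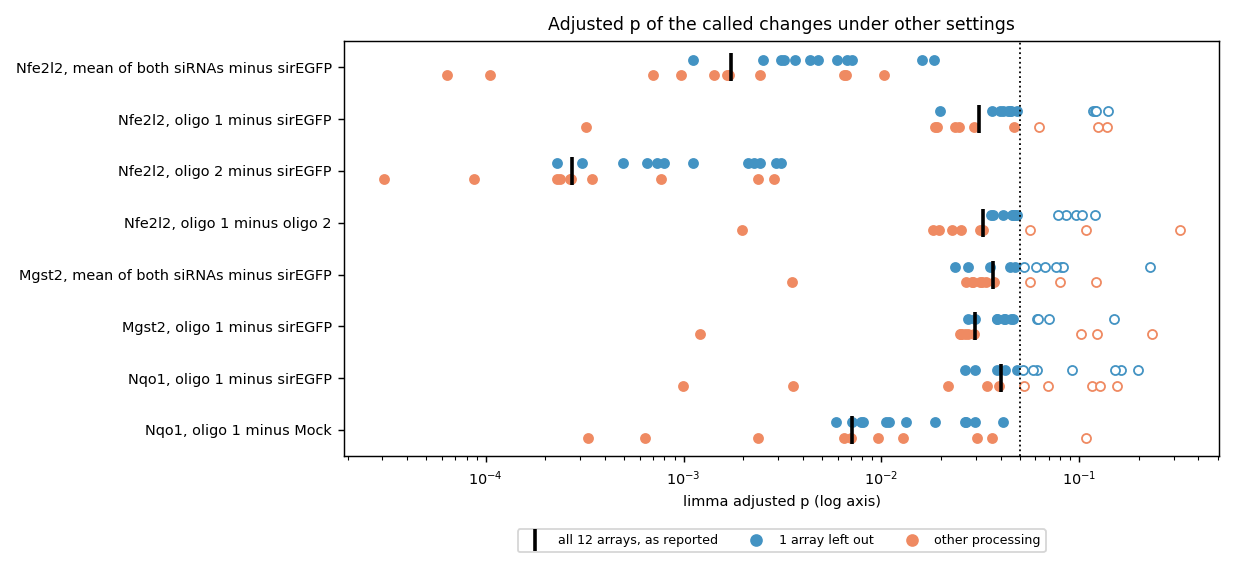
Adjusted p (horizontal log axis) of 8 called changes of Nfe2l2, Mgst2 and Nqo1 (rows) with all 12 arrays (black bar), with 1 array left out (blue) and under other processing (orange). Filled points are under 0.05 (dotted line). The rows of Nfe2l2 with oligo 2 and for the mean of both siRNAs hold filled points alone, as does Nqo1 with oligo 1 against Mock apart from 1 open point.

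The plot of adjusted p by setting sets the calls side by side. The calls of Nfe2l2 with oligo 2 were at most 0.00312 and those for the mean of both siRNAs at most 0.0185. Each oligo 1 call against sirEGFP crossed the threshold when 1 of several arrays was left out. When every probe set was tested on its own, with p-values adjusted over 35512 probe sets, 0 of the 9 genes were called with oligo 1 against sirEGFP, and the adjusted p was 0.102 for Mgst2, 0.116 for Nqo1 and 0.0624 for Nfe2l2.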

How the data were processed

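RNA of 12 NIH3T3 samples was measured on Affymetrix arrays, 3 per group. The authors deposited log2 expression values for each probe set on each array, and this scale was read off the numbers. How the authors summarised, background-corrected and normalised them is not given in the sources used here. Only limma is named in the submitters' processing notes. Array medians lay between 5.38 and 5.54. Signal over background could not be judged, and the number of arrays limits precision. Probe sets were named from the platform annotation and RefSeq (GRCm38.p6). Of these, 21789 had 1 symbol, 1621 several and 12102 none, and 21698 matched by Entrez identifier. Where a gene had several probe sets, as 999 genes did, the one with the highest mean was used.

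The test was limma's moderated test (version 3.58.1, R 4.3.3), two-sided, on a linear model with a coefficient per group, which left 8 residual degrees of freedom. Adjustment followed Benjamini-Hochberg across the 19938 genes, with calls at an adjusted p under 0.05. The fit was tested on simulated data. P-values measure the spread between arrays. The genes and lists were chosen with earlier results of these data known. The text names all 10 genes, Ubtf, up to 4 genes per list with the smallest p for the mean of both siRNAs against sirEGFP, and the 5 genes most and least like Mgst1, passing over predicted genes. Other genes are said to be chosen after their values were seen, as were Fabp4, Csf1r and the remaining called list genes. Same-numbered arrays deviated together in all 3 pairs of oligo 1 with oligo 2 (r 0.115 to 0.388) and of oligo 2 with sirEGFP (r 0.182 to 0.548), with nothing in the labels to say why. The other group pairs had 1 or 2 of 3 above 0.1. Some arrays with different numbers also correlated above 0.1, such as sirEGFP array 3 with oligo 2 array 2 (r 0.285) and oligo 1 array 2 with oligo 2 array 3 (r 0.175). A pairing by number is therefore not established, and the replicate block was fitted over all 4 groups. The alternatives were array centring, quantile normalization, a filter on the genes under the 25th percentile of mean level, averaged or separate probe sets, array weights, a replicate block, a trended prior, fits with only the groups compared, the mean of both controls, and each array left out. Leaving out 3 arrays at the extremes of within-group spread was added after seeing the data.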

Additional observations from a re-analysis of the deposited data

Results flagged for a closer look

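In 4 of 102 measured genes of the set and its lists (3.92%) the response differed between the siRNAs against UBF, by limma's test of the difference itself. This is near the 3.67% of all genes called in that comparison. Nfe2l2 was lower with oligo 1 than with oligo 2, by -0.445 on the log2 scale (adjusted p = 0.0326), while both stood above the controls. Slc7a11, the cystine transporter that feeds glutathione synthesis, differed by -1.40 (adjusted p = 0.00617), with 5.498, 5.542 and 5.479 on the oligo 1 arrays, 6.89, 6.39 and 7.45 on the oligo 2 arrays, 6.42, 6.25 and 6.15 on the sirEGFP arrays and 5.13, 6.23 and 5.82 on the Mock arrays. Its oligo 1 arrays were below all sirEGFP arrays and its oligo 2 arrays above all Mock arrays. Against sirEGFP, Slc7a11 differed by -0.77 for oligo 1 (adjusted p = 0.156) and 0.64 for oligo 2 (adjusted p = 0.277), and with oligo 2 it rose by 1.18 against Mock (adjusted p = 0.0163, lost without oligo 2 array 1 at 0.0504 or 3 at 0.0857 or Mock array 1 at 0.0862), and the call between the siRNAs was kept without any single array (adjusted p up to 0.0355) and lost without 3 arrays together, sirEGFP array 1 and oligo 1 arrays 1 and 2 (adjusted p = 0.0952). Chac1 was higher with oligo 1 than with oligo 2, by 0.891 (adjusted p = 0.0132), and this was lost without oligo 2 array 2 (adjusted p = 0.0746). Hmox1 was higher with oligo 1, by 1.27 (adjusted p = 0.0370), and this was lost without oligo 1 array 1 (adjusted p = 0.112) or 3 (0.167), oligo 2 array 1 (0.0551), 2 (0.170) or 3 (0.0602), or Mock array 3 (0.0571), and with array centring (0.0616).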

How the results depend on the processing

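For the mean of both siRNAs, Mgst1 stood 1.12 to 1.47 above sirEGFP under every alternative run, and 1.17 to 1.47 when single arrays were left out. For oligo 1 it was 0.93 to 1.45 and for oligo 2 1.27 to 1.56. With oligo 1, oligo 2 and the mean of both, 3, 1 and 2 genes were called against sirEGFP (2.47%, 2.26% and 1.93% of all genes). These became 0, 1 and 1 with every probe set tested on its own (0.988%, 1.01% and 0.617%). They became 6, 2 and 4 with array weights (19.1%, 5.92% and 9.78%), and 0, 1 and 1 with only the arrays compared (0.507%, 1.8% and 1.18%). Another run left out the 3 arrays (sirEGFP array 1, oligo 1 arrays 1 and 2) that lay farthest out on the main axis of within-group spread. It keeps 1 oligo 1 array, so no counts of the set are given for it. The pathway counts of that run, given further below, are a description only. For the mean of both siRNAs, oligo 1 is represented there by that 1 array. With single arrays left out the 3 counts were 0 to 3, 1 to 1 and 1 to 2 (0.777% to 4.33%, 0.993% to 3.14% and 0.542% to 3.62%). Against the mean of both controls 5 were called, a comparison whose share of all genes is not given here. Against Mock, the oligo 1 count of 2 (2.75% of all genes) became 1 with only the arrays compared (1.38%). It was 1 to 3 with single arrays left out (1.22% to 3.38%). The oligo 2 count of 1 against Mock (4.25% of all genes) became 2 with centring (4.79%), 4 with weights (8.08%) and 3 with the replicate block (6.47%). It was 2 with only the arrays compared (5.37%) and 1 to 2 with single arrays left out (1.54% to 5.24%). Between the siRNAs the 1 call (3.67% of all genes) became 2 with quantile normalization (3.78%), 4 with weights (15.9%) and 2 with the block (5.49%). It became 0 in the separate probe set fit (1.95%) and with only the arrays compared (1.91%), and 0 to 1 with single arrays left out (1.65% to 4.18%). The pathway counts of 8, 3 and 4 became 1, 2 and 2 by probe set, 40, 17 and 28 with weights, 15, 11 and 12 with the block and 1, 3 and 2 with only the arrays compared. With the block, 4.4%, 3.88% and 3.96% of all genes were called, and the shares under the other 3 settings are those given above. Centring gave 5 with oligo 2, and leaving out the 3 arrays gave 12 with oligo 2 and 16 for the mean. The mean against both controls gave 13, and single arrays left out gave 0 to 14, 2 to 6 and 2 to 14. The cause of these moves was not tested.

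Over all groups, 12 of 18 same-numbered pairs correlated above 0.1 (r from -0.24 to 0.55), and 9 of 12 arrays correlated best with their own number, a hint from the data. Only the pairs of oligo 2 with oligo 1 and with sirEGFP were all above 0.1. With the replicate block, 2 of the 9 genes were called with oligo 2 against sirEGFP, where 3.88% of all genes were called.

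Small differences that changed sign, none called, were Mgst3 with oligo 2 against sirEGFP (0.043 with centring, 0.052 with weights, 0.11 without the 3 arrays, -0.16 to 0.14 with single arrays left out), Mgst3 against both controls (-0.13), and Gss with oligo 2 (-0.0014 with quantile normalization, -0.22 to 0.28 with single arrays left out). Gss with oligo 1 against Mock ran from -0.14 to 0.57. For sirEGFP against Mock the ranges were -0.015 to 0.28 in Mgst1, -0.035 to 0.22 in Gclm and -0.055 to 0.073 in Gsr (-0.016 without the 3 arrays). Between the siRNAs they were -0.47 to 0.045 in Mgst1, -0.014 to 0.24 in Gclc and -0.085 to 0.059 in Gsr (0.0046 with quantile normalization).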
